A study of Mus musculus with 8 samples.

Results

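The chemokines and chemokine receptors of the ventricle were examined as a gene family. Members were the protein-coding genes whose symbol started with Cxcl, Ccl, Cxcr, Ccr or Ackr followed by a number, together with Cx3cl1. This rule, which used no measured value, found 57 of the 43346 genes in the count table, of which 36 encode ligands and 21 encode receptors. RNA was sequenced from the cardiac ventricles of 8 male C57BL/6 mice. Of these, 4 tumor-bearing mice were aged 7 weeks when 1000000 LLC1 cells were placed under the skin of the flank, and 4 control mice of that age had received the PBS vehicle alone. Hearts were taken 14 days after the injection in both groups. LLC1 is a lung carcinoma line derived from C57BL/6 mice, so every tumor came from 1 cell line. The labels name no engineered allele and no other agent in either group. The comparison asks which chemokine system transcripts of the heart differ between mice that carry a tumor elsewhere and mice that do not.

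Chemokines are small secreted proteins that guide the migration of leukocytes, and their classes are named for the spacing of their first cysteines. They act through G protein-coupled receptors on the migrating cells. Inflammatory chemokines such as Ccl2 and Cxcl1 are induced by cytokines, whereas homeostatic chemokines such as Cxcl12 and Ccl21a are made constantly by stromal and lymphatic cells. Atypical receptors bind chemokines without signaling through G proteins and clear or store them.

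Of 24 members with enough counts to test, 7 were lower in tumor-bearing mice than in PBS-injected mice and 0 were higher, against 4.61% of all tested genes lower and 4.12% higher. The count fell to 3 (Cxcl9, Cxcl16 and Ccl2) when LLC1 1-2, 1-3 or 1-5 or PBS 1-3 was left out. The 7 were the neutrophil attractant Cxcl1, the interferon-induced ligand Cxcl9, the monocyte attractants Ccl2 and Ccl7, the membrane-anchored ligands Cxcl16 and Cx3cl1, and the monocyte receptor Ccr2. The estimated decreases ranged from 28.1% for Cx3cl1 to 76.5% for Ccl2. Ccl2 and Ccl7 had enough counts to test only because of the PBS-injected mice. The filter thus favored lower values for both, and their direction is no evidence. The abundant homeostatic ligands Cxcl12, Cxcl14, Ccl21a and Ccl21b and the atypical receptors Ackr3 and Ackr4 did not pass the test.

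The promoter sequences of Cxcl9 and Cxcl1 are shown because both ligands belong to textbook cytokine-induced groups and both were lower in every tumor-bearing mouse than in any PBS-injected mouse. They are RefSeq sequence of build GRCm38.p6, read 5′ to 3′ on the strand of the gene, and they end at the last base before the annotated gene. The capitals mark matches to GAAANNGAA, a motif of interferon response type, in Cxcl9 and to the kappaB consensus of NF-kB in Cxcl1.
Cxcl9 chr5:92328080-92328329 minus strand: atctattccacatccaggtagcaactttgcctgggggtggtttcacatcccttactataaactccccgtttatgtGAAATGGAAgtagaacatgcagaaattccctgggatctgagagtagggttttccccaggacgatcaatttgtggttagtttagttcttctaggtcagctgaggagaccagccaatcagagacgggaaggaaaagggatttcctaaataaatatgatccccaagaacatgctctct
Cxcl1 chr5:90890995-90891240 plus strand: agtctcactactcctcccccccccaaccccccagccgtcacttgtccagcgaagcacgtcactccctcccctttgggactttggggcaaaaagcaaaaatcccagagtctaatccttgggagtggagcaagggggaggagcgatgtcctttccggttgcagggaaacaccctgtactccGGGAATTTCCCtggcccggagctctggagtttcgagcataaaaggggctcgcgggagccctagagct
In Cxcl9 the match lay on the strand of the gene at bases -175 to -167 counted from the RefSeq start site. In Cxcl1 the kappaB consensus matched on the strand of the gene at bases -71 to -62 and on the other strand at -70 to -61, and these overlapping matches form the capital run. For Cxcl1, 4 bases lie between the end of the printed sequence and the RefSeq start. In all, 20 windows of 250 bases before the start were found for 17 of the 24 members that could be tested. The window listed for Ccl21b, at chr4:42172870-42173119, lay away from that gene as the count table places it, at chr4:42255767-42256432, and held no match. Of these 17, 3 held GAAANNGAA, 4 held the kappaB consensus and 1 held TTCNNNGAA, on either strand. Among all 32851 RefSeq promoter windows of this length, 7.13% held GAAANNGAA, 7.25% held the kappaB consensus and 7.02% held TTCNNNGAA. These shares are per window, whereas the counts of members are per gene. The window of Ccr2 also held GAAANNGAA, but that match lay inside the gene as the count table places it. The other tested members with a match were Cxcl14 for GAAANNGAA and TTCNNNGAA and Ackr2, Ccl9 and Ccr1 for the kappaB consensus, and all 4 missed the FDR threshold. The window of Cx3cl1 held none of the 3 motifs. A match describes letters only and was not tested for binding.

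Sequencing gave between 15342214 and 19747596 counts on genes in the tumor-bearing mice and between 12480706 and 16192158 in the PBS-injected mice. Levels are counts per 1000000 counts (CPM) after edgeR's TMM scaling, and 1 CPM stood for 11.7 to 19.9 counts in a library. The table held 16111 genes with enough counts to test, compared with edgeR's quasi-likelihood test at a false discovery rate (FDR) under 0.05 over all of them. Values are listed in the order of the replicate codes, LLC1 1-2, 1-3, 1-5 and 2-2, then PBS 1-1, 1-3, 2-1 and 2-5. The exact permutation test, given beside the model, runs over the 70 arrangements of the mice and cannot give a p below 0.0286. Both tests rest on the spread between these 8 mice. The edgeR test also draws the dispersion of each gene toward a trend over all tested genes. The library of PBS 1-1 was the shallowest and had the lowest TMM factor, 0.935, and leaving it out raised the number of genes called from 1406 to 1949. Values without it are given for each called member, for members whose call it changes, and for the pathway and marker lists as counts of calls.

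Of the 57 members, 24 passed the filter on low counts and were tested, 16 ligands and 8 receptors. The other 33 were too low, with no count in any mouse for Ccl20, Ccl27b and Cxcl15, at most 10 counts in every mouse for 27 of the 33, and no more than 20 in any mouse. The 7 lower members were 6 ligands and 1 receptor. The count of 0 higher members in edgeR's test was also 0 in each of the 17 alternative fits, DESeq2 and limma-voom included. At an unadjusted p under 0.05 in edgeR's test, 0 members were higher and 11 were lower. The share of all tested genes at that level is not given here, so these counts have no baseline. The values of 17 members were lower and of 7 higher, with a median log2 fold change of -0.38 compared to -0.01 over all tested genes. Ccl2, Ccl7 and Ccr1 reached the filter level in enough libraries only because of the PBS-injected mice. The filter thus favored lower values for these 3, and the counts and median are no evidence of direction. In bulk ventricle, fewer cells of a type and less RNA per cell cannot be told apart.

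**Figure D1:**
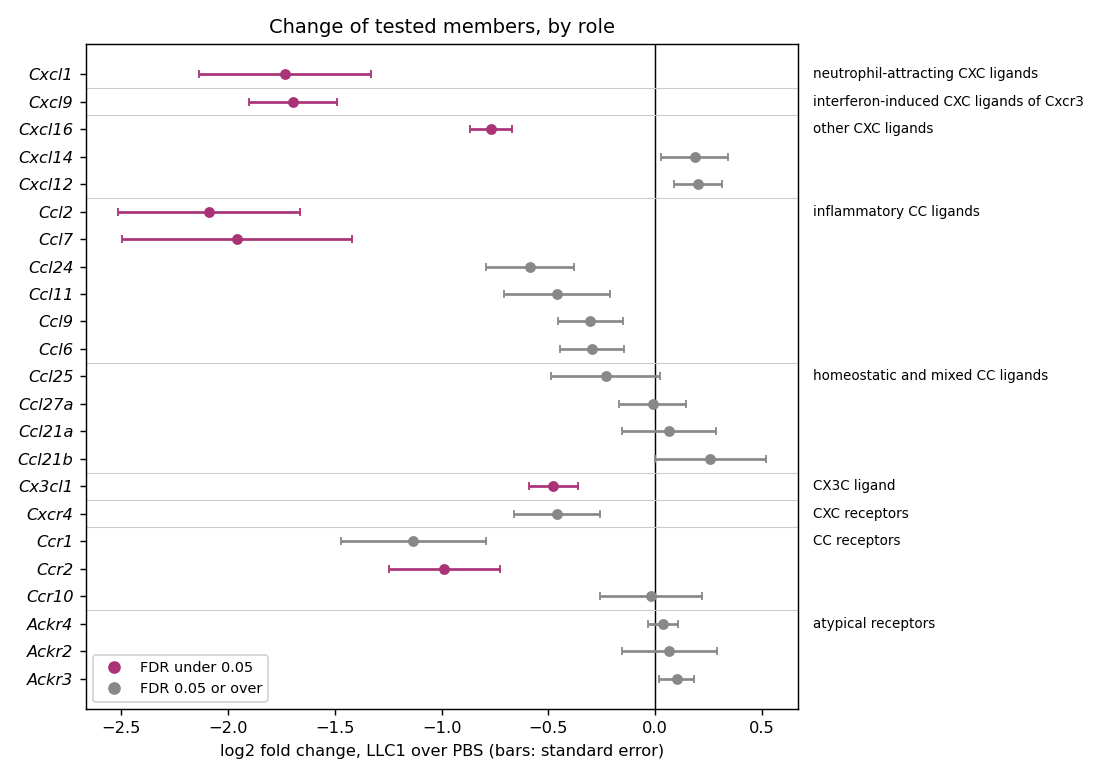
Each point is the log2 fold change of 1 of 23 tested members in 4 tumor-bearing over 4 PBS-injected mice, with its standard error as the bar, grouped by role. The 7 members with an FDR under 0.05 lie left of 0, from -0.48 for Cx3cl1 to -2.09 for Ccl2, and the homeostatic ligands and atypical receptors lie near 0.

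Of the 5 members in the group of neutrophil-attracting CXC ligands, only Cxcl1 could be tested (ENSMUSG00000029380, mm10 chr5:90891241-90893115). Cxcl1 stood at 0.992, 0.658, 0.985 and 0.704 CPM in the tumor-bearing mice and at 5.32, 2.94, 1.29 and 2.01 CPM in the PBS-injected mice. The groups did not overlap, and PBS 1-1 was the highest. Cxcl1 fell by 1.73 on the log2 scale (SE 0.40, edgeR FDR = 0.0219, exact permutation p = 0.0286, n = 4 and 4). The FDR was 0.0507 to 0.0666 when LLC1 1-2, 1-3, 1-5, 2-2 or PBS 1-3 was left out, and without PBS 1-1 the log2 fold change was -1.29 with an FDR of 0.0163. Its neighbor Cxcl2, which starts 10.8 kb downstream, was too low to test, with 3, 0, 1 and 3 counts compared to 7, 10, 1 and 4. Cxcl5 had 11 counts over the 4 tumor-bearing mice and 13 over the PBS-injected mice.

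Cxcl9 is induced by interferon gamma and attracts activated T cells through Cxcr3 (ENSMUSG00000029417, mm10 chr5:92321331-92328079). Its level was 2.38, 1.38, 2.24 and 3.02 CPM in the tumor-bearing mice compared to 5.66, 8.13, 7.30 and 8.44 CPM in the PBS-injected mice. Every tumor-bearing mouse was below every PBS-injected mouse, and the closest pair was LLC1 2-2 and PBS 1-1. Cxcl9 had the smallest FDR of the family, with a log2 fold change of -1.70 (SE 0.21, edgeR FDR = 0.00105, exact permutation p = 0.0286). The FDR stayed between 0.000173 and 0.00668 with any 1 mouse left out, and the log2 fold change was -1.79 without PBS 1-1. The study lists Cxcl9 among its changed transcripts from these same mice, so its presence here is not independent evidence. Cxcl10, a ligand of the same receptor encoded 18.6 kb away, was too low to test, with 7, 3, 4 and 0 counts in the tumor-bearing mice and 9, 7, 8 and 20 in the PBS-injected mice. The receptor Cxcr3 itself did not exceed 2 counts in a tumor-bearing mouse or 5 in a PBS-injected mouse.

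Cxcl16 is a membrane-anchored ligand and scavenger receptor made by macrophages and endothelium, and its receptor is Cxcr6 (ENSMUSG00000018920, mm10 chr11:70453983-70459984). It stood at 7.74, 6.98, 7.33 and 8.70 CPM in the tumor-bearing mice and at 13.2, 13.1, 12.7 and 13.6 CPM in the PBS-injected mice. The groups were far apart compared to the spread within them, with an SD of 0.745 CPM in the tumor-bearing mice and 0.380 CPM in the PBS-injected mice. The log2 fold change was -0.77 (SE 0.097, edgeR FDR = 0.00133, exact permutation p = 0.0286), and the FDR was at most 0.00755 with any 1 mouse left out. Without PBS 1-1 the log2 fold change of Cxcl16 was -0.76. Zmynd15 overlaps 18.3% of the exon bases of Cxcl16 on the other strand and was also lower, at 4.02 to 6.09 CPM compared to 7.12 to 11.04 CPM (log2 fold change -0.84, edgeR FDR = 0.00991). The library kit does not mark strand, so reads of the shared bases cannot be assigned to either gene. Cxcr6 had 4 to 10 counts in the tumor-bearing mice and 5 to 12 in the PBS-injected mice and was not tested.

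Cxcl12, the ligand of Cxcr4 and Ackr3 and a retention signal for progenitor cells, did not pass the test. It was at 143.6, 182, 156 and 181 CPM in the tumor-bearing mice and at 172, 118, 137.5 and 151 CPM in the PBS-injected mice. These ranges overlapped and the log2 fold change was 0.20 (SE 0.11, edgeR FDR = 0.294, 95% interval -0.02 to 0.42). Cxcl14 ranged from 9.03 to 12.6 CPM in the tumor-bearing mice and from 7.44 to 12.1 CPM in the PBS-injected mice, with an FDR of 0.498. Neither was called in any of the alternative fits.

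**Figure D2:**
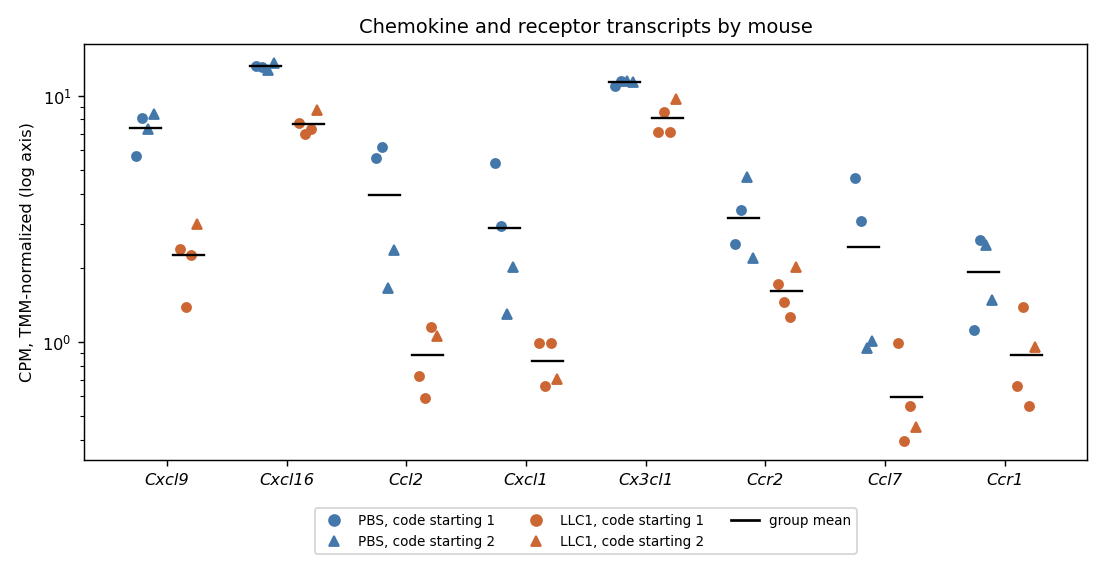
Points are TMM-normalized CPM of 8 members in single mice on a log axis, with circles for replicate codes starting with 1, triangles for codes starting with 2 and lines at group means. Cxcl9, Cxcl16 and Cx3cl1 were tight in the PBS-injected mice, whereas Ccl2, Cxcl1 and Ccl7 spread widely there, from 1.65 to 6.17 CPM for Ccl2.

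Ccl2 and Ccl7 are neighboring genes on chromosome 11, 8.26 kb apart, and both encode ligands of Ccr2 that draw monocytes out of the blood. Ccl2 (ENSMUSG00000035385, mm10 chr11:82035571-82037453) was at 0.728, 0.593, 1.15 and 1.06 CPM in the tumor-bearing mice and at 5.58, 6.17, 1.65 and 2.36 CPM in the PBS-injected mice. The groups did not overlap, but PBS 1-1 and 1-3 were far above PBS 2-1 and 2-5. Ccl2 fell by 2.09 on the log2 scale (SE 0.42, edgeR FDR = 0.0129, exact permutation p = 0.0286). Its FDR was 0.00509 to 0.0457 with any 1 mouse left out, and the log2 fold change without PBS 1-1 was -1.87.

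Ccl7 (ENSMUSG00000035373, mm10 chr11:82045712-82047525) stood at 0.992, 0.395, 0.547 and 0.453 CPM in the tumor-bearing mice and at 4.63, 3.08, 0.942 and 1.00 CPM in the PBS-injected mice. LLC1 1-2 was just above PBS 2-1, so the groups overlapped. The log2 fold change was -1.96 (SE 0.54, edgeR FDR = 0.0435, exact permutation p = 0.0571). This call was the least stable of the 7, since the FDR was 0.0597 without PBS 1-1, 0.0610 to 0.121 without any 1 of the 4 tumor-bearing mice or PBS 1-3, 0.0950 in limma-voom and 0.0656 with robust estimation.

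Ccl2, Ccl7 and Cxcl1 were split the same way within the PBS group. The 2 mice whose replicate code starts with 1 averaged 5.87 CPM for Ccl2, 3.86 for Ccl7 and 4.13 for Cxcl1, and the 2 mice whose code starts with 2 averaged 2.00, 0.973 and 1.65 CPM. The labels do not say what the first number of the code stands for. Among codes starting with 1, Ccl2 was at 0.593 to 1.15 CPM in 3 tumor-bearing mice and 5.58 to 6.17 CPM in 2 PBS-injected mice. Among codes starting with 2 it was 1.06 CPM in the only tumor-bearing mouse and 1.65 to 2.36 CPM in 2 PBS-injected mice. With the first number as a covariate all 7 calls were kept and Ccl6 joined them, at a log2 fold change of -0.41 and an FDR of 0.0160.

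The remaining inflammatory CC ligands did not pass the test. Ccl6 and Ccl9, macrophage products of the same cluster, were the most abundant of this group per kb of gene length over all 8 mice. Ccl6 stood at 11.6, 10.8, 10.4 and 8.10 CPM in the tumor-bearing mice compared to 14.6, 14.9, 10.5 and 10.5 CPM in the PBS-injected mice. Ccl9 stood at 9.92, 8.30, 7.71 and 7.35 CPM compared to 10.4, 13.2, 9.48 and 8.09 CPM. The groups overlapped for both, with FDRs of 0.241 and 0.234. The eosinophil attractant Ccl24 was lower in every tumor-bearing mouse, at 1.06 to 1.20 CPM compared to 1.41 to 2.15 CPM, yet its FDR was 0.103. The other eosinophil attractant, Ccl11, ranged from 1.16 to 2.38 CPM and from 1.89 to 3.30 CPM with an FDR of 0.268. Below the filter, Ccl12 had 5, 6, 4 and 7 counts compared to 6, 15, 11 and 12, and Ccl5, a T cell attractant, had 1, 2, 1 and 2 counts compared to 2, 6, 12 and 4.

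In all, 7 tested members lay lower in every tumor-bearing mouse than in any PBS-injected mouse, compared to 8.27% of all tested genes. They were Cxcl1, Cxcl9, Cxcl16, Ccl2, Ccl24, Cx3cl1 and Ccr2, of which only Ccl24 was not called. Ccl2 was tested only because of its counts in the PBS-injected mice. In the other direction, 0 members lay higher in every tumor-bearing mouse, a count with no share of all tested genes beside it.

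Cx3cl1 is a transmembrane ligand of endothelium that tethers cells carrying Cx3cr1 (ENSMUSG00000031778, mm10 chr8:94772009-94782423). It was at 7.14, 8.56, 7.11 and 9.71 CPM in the tumor-bearing mice and at 10.98, 11.50, 11.48 and 11.39 CPM in the PBS-injected mice. The SD of the PBS-injected mice was 0.241 CPM, and LLC1 2-2 came nearest to them. The log2 fold change was -0.48 (SE 0.11, edgeR FDR = 0.0258, exact permutation p = 0.0286). The FDR was 0.0568 to 0.0793 when LLC1 1-2, 1-3, 1-5 or PBS 1-3 or 2-1 was left out, and 0.0212 without PBS 1-1. Its receptor Cx3cr1, whose name lies outside the rule, is a marker of resident macrophages and patrolling monocytes. It stood at 3.24, 1.91, 2.24 and 2.72 CPM compared to 5.06, 3.23, 9.06 and 3.90 CPM, with overlapping groups and a log2 fold change of -1.08 (SE 0.30, edgeR FDR = 0.0466), and it was called in 3 of 8 fits with a mouse left out. The study lists Cx3cr1 among its changed transcripts as well.

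Of the signaling receptors 5 were tested and 1 was lower. Ccr2, the receptor for Ccl2 and Ccl7 on inflammatory monocytes (ENSMUSG00000049103, mm10 chr9:124101950-124113557), was at 1.72, 1.45, 1.26 and 2.01 CPM in the tumor-bearing mice and at 2.49, 3.44, 4.65 and 2.18 CPM in the PBS-injected mice. LLC1 2-2 and PBS 2-5 were the closest pair, and PBS 2-1 was the highest. The log2 fold change was -0.99 (SE 0.26, edgeR FDR = 0.0362, exact permutation p = 0.0286). Leaving out LLC1 1-2, 1-3, 1-5 or PBS 1-3 or 2-1 gave an FDR of 0.0775 to 0.104, and leaving out PBS 1-1 gave 0.0187.

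Ccr1, which binds ligands such as Ccl3 and Ccl5 on macrophages and other leukocytes, missed the threshold. It stood at 0.662, 1.38, 0.547 and 0.956 CPM in the tumor-bearing mice and at 1.12, 2.59, 2.47 and 1.48 CPM in the PBS-injected mice, with LLC1 1-3 above PBS 1-1. The log2 fold change of Ccr1 was -1.13 (SE 0.34, edgeR FDR = 0.0584), and its FDR was 0.0187 without PBS 1-1 and 0.0481 without PBS 2-5. Ccr1 was also called by DESeq2, by edgeR's likelihood ratio test, with robust estimation and when every gene with at least 1 count was tested. PBS 2-1, the highest mouse for Ccr2 and Cx3cr1, was not among the high mice for Ccl2, Ccl7 and Cxcl1.

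Cxcr4, the signaling receptor of Cxcl12, was at 5.29, 5.07, 5.47 and 5.18 CPM in the tumor-bearing mice and at 4.03, 6.94, 8.18 and 9.39 CPM in the PBS-injected mice. The tumor-bearing mice were nearly equal, and PBS 1-1 alone lay below them. Its log2 fold change was -0.46 (SE 0.20, edgeR FDR = 0.173) in all 8 mice and -0.64 with an FDR of 0.00691 without PBS 1-1. Without that mouse 10 members were called, among them the 7 above except Ccl7, and Ccr1, Cxcr4 and Ccl12. The neutrophil receptor Cxcr2 had 2, 8, 3 and 4 counts in the tumor-bearing mice and 3, 0, 0 and 0 in the PBS-injected mice, too few to test. Ccr10, the receptor for Ccl27a, ranged from 0.860 to 1.31 CPM and from 0.942 to 1.33 CPM, with an FDR of 0.979.

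Of the atypical receptors 3 were tested and 0 were called, also at an unadjusted p under 0.05. Ackr3, which scavenges Cxcl12, was at 117, 131, 127.8 and 122 CPM in the tumor-bearing mice and at 131, 120.7, 114 and 99.5 CPM in the PBS-injected mice (log2 fold change 0.10, 95% interval -0.06 to 0.26, edgeR FDR = 0.474). Ackr4, which scavenges Ccl21 and Ccl25, ranged from 47.3 to 52.9 CPM and from 43.5 to 51.9 CPM, with an FDR of 0.791 and an interval of -0.10 to 0.17 on the log2 scale. Of the exon bases of Ackr4, 8.9% are shared with Acad11 on the other strand, whose log2 fold change was 0.03. Ackr2, which clears inflammatory CC chemokines, had an FDR of 0.885.

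The lymph node-homing ligands Ccl21a and Ccl21b varied widely from mouse to mouse. Ccl21a stood at 16.0, 19.7, 13.3 and 19.2 CPM in the tumor-bearing mice and at 10.5, 17.7, 24.1 and 12.3 CPM in the PBS-injected mice, with an FDR of 0.884. Ccl21b stood at 3.77, 5.60, 3.39 and 6.54 CPM compared to 2.83, 4.42, 5.77 and 3.01 CPM, with an FDR of 0.573. Both transcripts are at least 99.3% identical to each other or to the copies Gm13304, Gm21541 and Gm10591, so the split of reads among them is uncertain. Summed over the 5 copies, the level was 21.9 to 35.3 CPM in the tumor-bearing mice and 17.1 to 39.1 CPM in the PBS-injected mice. Ccl27a, a skin-homing ligand with near-identical copies of its own, had an FDR of 0.973, and the gut ligand Ccl25 had an FDR of 0.605.

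Compared per kb of gene length, the most abundant members were those that did not pass the test. In the PBS-injected mice Ackr3 stood highest at 34.8 ± 3.93 CPM per kb (SD, n = 4), followed by Ccl21a at 18.6 ± 7.04, Cxcl12 at 17.7 ± 2.80, Ccl21b at 9.97 ± 3.41 and Ackr4 at 9.13 ± 0.678 CPM per kb. Ccl21a and Cxcl12, and likewise Ccl21b and Ackr4, differed by less than their spread. The same 5 genes led in the tumor-bearing mice, with Ackr3 at 37.2 ± 1.80 CPM per kb. Of the 7 lower members, Cxcl16 was the most abundant in the PBS-injected mice at 4.35 ± 0.126 CPM per kb, and Ccr2 was the least at 0.499 ± 0.174 CPM per kb. In the tumor-bearing mice Cxcl16 stood at 2.55 ± 0.247 and Ccr2 at 0.252 ± 0.0514 CPM per kb.

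**Figure D3:**
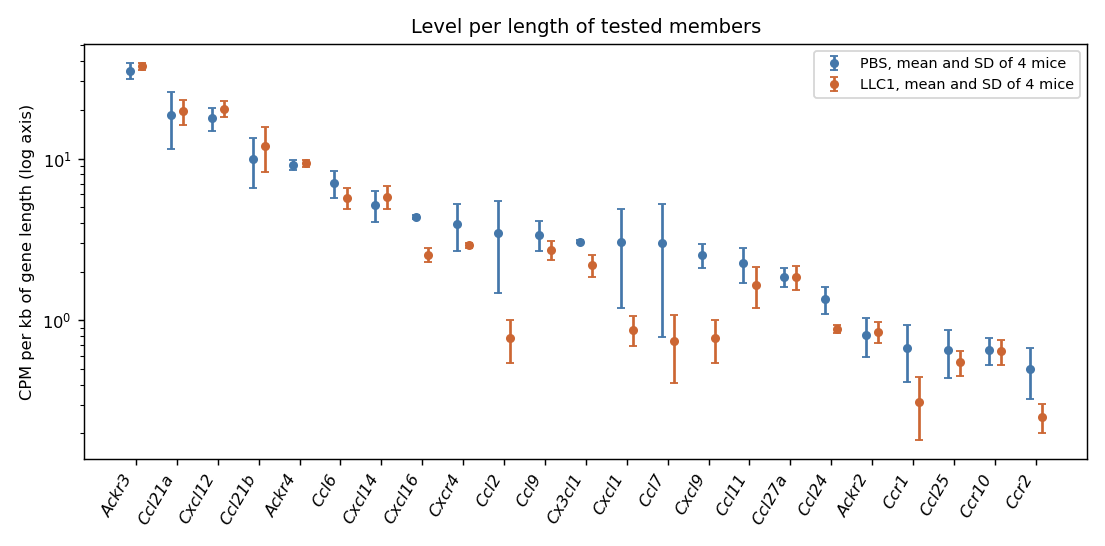
Points are group means and bars the SD of 4 mice for the level in CPM per kb of gene length on a log axis, for 23 tested members in the order of the PBS-injected mice. Ackr3 leads in both groups at 34.8 and 37.2 CPM per kb, and the bars separate at Cxcl16, Ccl2, Cx3cl1, Cxcl1, Cxcl9, Ccl24 and Ccr2 but overlap for the 5 most abundant members.

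The rest of the chemokine pathway was read from 5 lists of genes outside the rule. Of 11 other chemokines and receptors, 9 were tested, 2 were lower and 2 were higher. The lower ones were Cx3cr1 and the platelet chemokine Pf4, at 7.49 to 10.7 CPM compared to 12.7 to 13.7 CPM (log2 fold change -0.59, edgeR FDR = 0.0104). The higher ones were Mif, a cytokine that binds Cxcr2 and Cxcr4, at 56.6 to 64.8 CPM compared to 43.4 to 50.1 CPM (log2 fold change 0.33, edgeR FDR = 0.0160), and Ccrl2, an atypical receptor for chemerin, at 14.7 to 17.7 CPM compared to 11.2 to 13.8 CPM (log2 fold change 0.36, edgeR FDR = 0.0429). The groups did not overlap for Pf4, Mif or Ccrl2, but Ccrl2 was called in only 1 of 8 fits with a mouse left out. Ppbp, a platelet ligand of Cxcr2, had overlapping groups and an FDR of 0.520.

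Over all tested genes 4.61% were lower and 4.12% higher, and the list counts are to be read beside these shares. Downstream of the receptors, 1 of 13 tested G proteins, receptor kinases and arrestins was lower, Gnai3 with a log2 fold change of -0.33 (edgeR FDR = 0.0403, called in 2 of 8 fits with a mouse left out). Of 21 tested effectors of migration, 6 were lower and 0 higher, and 3 of the 21 had a positive fold change. They included Pik3cg, the lipid kinase that G protein beta-gamma subunits activate, with a log2 fold change of -0.81 (edgeR FDR = 0.0302), Prex1 and Elmo1, which activate Rac, at -0.57 and -0.53, the kinase Lyn at -0.40, and the GTPase Cdc42 at -0.24. Lyn was called in 8 of 8 fits with a mouse left out, and Pik3cg, Prex1, Elmo1 and Cdc42 in 2 or 3 of 8.

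Among the inducers of chemokine transcription, 1 of 12 tested genes was lower and 0 were higher. It was Il1b, which drives NF-kB, at 0.529, 0.988, 0.274 and 0.704 CPM compared to 1.97, 2.03, 1.59 and 1.12 CPM (log2 fold change -1.42, edgeR FDR = 0.0254, called in 4 of 8 fits with a mouse left out). Il1b passed the filter only through the PBS-injected mice, which favored a lower value, so its call is no evidence of direction. Tnf was too low to test, with 1, 4, 1 and 2 counts compared to 6, 10, 8 and 8, and Ifng had 2 counts in all 8 mice together. The interferon-induced factor Irf1 had an FDR of 0.333. Nfkbia, an inhibitor of NF-kB, had a log2 fold change of 0.37 with an FDR of 0.0516 and was called higher in 5 of 9 alternatives with all mice. In the list of ligand processing and presentation, 1 of 9 genes was lower, and it was Adam10, the protease that sheds Cx3cl1 and Cxcl16 from the membrane. Adam10 stood at 38.6, 42.5, 41.2 and 41.7 CPM compared to 53.0, 57.2, 51.8 and 59.8 CPM (log2 fold change -0.44, edgeR FDR = 0.00395) and was called in 8 of 8 fits with a mouse left out. Without PBS 1-1, 3 other chemokines and receptors were lower and 1 higher, with Ccrl2 no longer called, 1 G protein gene was lower but not Gnai3, 8 effectors, 1 inducer and 2 processing genes were lower, and 0 genes of these last 4 lists were higher.

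Markers of the cells that make or carry these transcripts were read as lists beside the members, and their part in the results was not tested. All 12 resident macrophage markers were lower by value, with a median log2 fold change of -0.29 compared to -0.01 over all tested genes. Of the 12, 2 were called, Mrc1 and Cx3cr1, while others were far from the threshold, such as Lyve1 and Cd163 with FDRs of 0.832 and 0.747. The summed level of the 12 markers was 244 to 313 CPM in the tumor-bearing mice and 261 to 376 CPM in the PBS-injected mice. Only PBS 1-1 lay within the range of the tumor-bearing mice, and without it the PBS-injected mice stood at 318 to 376 CPM, above all 4 tumor-bearing mice, with 5 markers lower. Cxcl9 as a percent of that sum was 0.505 to 1.24 in the tumor-bearing mice and 2.12 to 2.56 in the PBS-injected mice, and Cxcl16 was 2.48 to 3.56 and 3.61 to 5.05. Ccl2 was 0.216 to 0.434 and 0.479 to 2.13, and Cxcl1 was 0.241 to 0.372 and 0.376 to 2.03. These 4 ranges did not overlap, while those of Cx3cl1, Ccl7, Ccr1 and Ccr2 did. The genes were picked with their difference between the groups known, so this separation cannot be told apart from that choice. No share over all genes stands beside it, and the part of macrophage content was not tested.

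The monocyte list had 1 of 6 genes tested, Ly6c2, and it was higher, with a summed level of 38.7 to 50.2 CPM compared to 16.99 to 27.2 CPM, of which Ly6c2 made up 93.2% to 97.8% in each mouse. The rest of the monocyte list overlapped between the groups, at 0.906 to 1.84 CPM and 0.601 to 1.59 CPM. Of 3 tested neutrophil markers, S100a8 and S100a9 were higher, with log2 fold changes of 1.76 and 1.72 and edgeR FDRs of 0.0337 and 0.0109, called in 1 and 8 of 8 fits with a mouse left out. Both passed the filter only through the tumor-bearing mice, so they had to be higher. The list summed to 3.47 to 6.32 CPM compared to 1.24 to 3.09 CPM. Csf3r, the other tested neutrophil marker, had overlapping groups, at 1.48 to 3.42 CPM and 0.826 to 2.17 CPM. Its edgeR FDR was 0.389, so the separation of the list sum is no evidence of direction. T and NK cell markers summed to only 1.45 to 2.32 CPM compared to 2.06 to 3.60 CPM, with 1 of 13 genes tested and 0 called, and B cell markers to 1.06 to 1.85 CPM compared to 1.47 to 3.35 CPM, with 0 called. Dendritic cell markers summed to 22.6 to 26.6 CPM compared to 31.0 to 36.2 CPM, and Zbtb46, which made up 77.4% to 85.6% of the sum, was lower. Without Zbtb46 the dendritic cell sums overlapped, at 3.77 to 5.25 CPM and 4.46 to 6.91 CPM.

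Endothelial markers summed to 728 to 840.2 CPM in the tumor-bearing mice and 824 to 1084 CPM in the PBS-injected mice, with Kdr and Emcn lower of 6. Without PBS 1-1 the PBS-injected mice summed to 1007 to 1084 CPM and 4 endothelial markers were lower. Fibroblast markers summed to 838 to 917 CPM compared to 925 to 1308 CPM, with Col1a1, Col3a1 and Lum lower of 6. Col3a1 and Lum were called in 8 of 8 fits with a mouse left out and Col1a1, whose groups overlapped, in 1 of 8. Among the other called markers Emcn was called in 5 of 8 such fits, Mrc1 and Myh6 in 4 of 8, and Kdr, Zbtb46 and Ly6c2 in 8 of 8. Of 4 tested platelet markers, Pf4 was lower. Cardiomyocyte markers summed to 81184 to 86910 CPM compared to 72820 to 74796 CPM, the highest sum of any list, and Myh6 was higher, joined by Tnnt2 without PBS 1-1. The counts of calls in the remaining marker lists were the same without that mouse. In the lists of lymphatic endothelium, pericytes and smooth muscle, eosinophils and mast cells, erythroid cells and mesothelium, 0 genes were called.

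**Figure D4:**
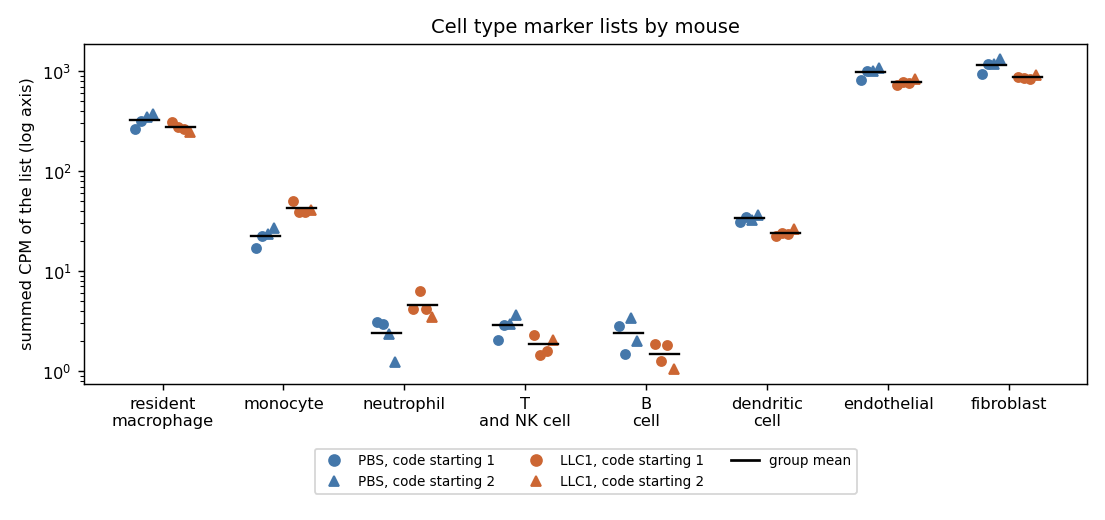
Points are the summed CPM of 8 cell type marker lists in single mice on a log axis, with circles for replicate codes starting with 1, triangles for codes starting with 2 and lines at group means. The monocyte list, which is nearly all Ly6c2, is higher in all 4 tumor-bearing mice. The neutrophil list is higher in all 4 too, but its S100a8 and S100a9 passed the filter only through these mice, and its Csf3r overlaps. The dendritic cell list, which is mostly Zbtb46, is lower in all 4, and the resident macrophage lists overlap through PBS 1-1.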

How the data were processed

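Ventricular mRNA of 8 male mice was sequenced as 150-base paired-end reads from TruSeq v2 libraries, whose kit does not mark strand. The authors deposited whole-number read counts per gene, not normalized, with a gene length per row, and their processing notes name CASAVA, STAR, featureCounts and build mm10. Versions, annotation and strand setting are not given in the sources used here. Groups were taken from the treatment labels, and all deposited count columns were used.

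Counts were analyzed with edgeR 4.0.16 in R 4.3.3 (filterByExpr, TMM, quasi-likelihood test, Benjamini-Hochberg FDR over 16111 genes, 0.05 threshold, biological coefficient of variation 0.109). The filter asks for about 0.627 CPM in 4 libraries. The exact permutation test is 2-sided on mean log2 CPM with a prior count of 2. Cutoffs for near-identical transcripts were 97% identity over 150 bases (BLAST 2.17.0). The fit was tested on simulated counts. Alternatives were other scaling, filters, tests (DESeq2 1.42.0, limma 3.58.1), a covariate and leaving out each mouse. Marker sums without the most abundant gene, and list counts without PBS 1-1, were added after seeing the data.

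Members, gene lists and the rule for naming were chosen with earlier results of these data known. Values were given for called members, members in the study's table of changed transcripts, and the 2 most abundant members per role. Cxcl5, Ccl5, Ccl11, Ccl12, Ccl24, Ccl25, Ccl27a, Ccr1, Cxcr2, Cxcr3, Ackr2, Zmynd15, Irf1, Nfkbia, Ppbp, Tnf, Ifng and the marker genes were named after their values were seen. RefSeq promoter windows were searched on both strands. Other steps used Python 3.11.15, and protein sequences were not used here. Values of some single genes are not reported here, while counts of genes include them.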

Additional observations from a re-analysis of the deposited data

How the results depend on the processing

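No paired analysis was possible because the groups share only 1 replicate code (1-3), carried by different animals. The 7 called members and Ccr1 kept their direction in all alternatives that could test them, and Cxcl9, Cxcl16 and Ccl2 were called in all 8 fits with a mouse left out. With a mouse left out, the number of members called lower was 3 to 10, of pathway genes outside the rule 4 to 16, and of all tested genes 542 to 1949, compared to 7, 13 and 1406 with all mice. The lowest member count came without LLC1 1-2, 1-3 or 1-5 or PBS 1-3 and the highest without PBS 1-1. In the 9 alternatives with all mice, 5 to 9 members were called. The 5 came from requiring at least 10 counts in every mouse, which leaves Ccl2 and Ccl7 untested. Over these 8 members, 23 calls were lost, 6 gained and 105 unaltered. Scaling to total counts alone moved the median log2 fold change of all genes to -0.06 and left the same 7 members called. At 11.7 to 19.9 counts per CPM, the 33 untested members and Ccl7, with 6 to 15 counts in tumor-bearing mice, limit what can be detected.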
